A study of Mus musculus with 12 samples.

Results

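The genes described here encode neuronal calcium sensors and calmodulins: Vsnl1, Hpcal1, Hpcal4, Ncald, Hpca, Ncs1, Cabp1, Calm2 and Calm3. They were chosen by gene name from the deposited tables, because Vsnl1 and Cabp1 differed with genotype. Of the 9 genes, 8 had rows in both tables, among 16617 genes with a transcript in both. Hpca, the gene of hippocalcin, had no row in either table and is not analysed further. All 8 passed the filter on low counts.

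The libraries came from dorsal root ganglion neurons of adult C57B6 mice, the sensory neurons whose cell bodies lie beside the spinal cord. The neurons of 1 mouse per culture were grown for 3 days on inserts with 1 µm pores, through which neurites grow while the cell bodies (soma) stay above. Cultures were labelled GAR+/+ (WT below) or GAR+/- (het below), where GAR stands for a domain rich in glycine and arginine at one end of nucleolin, an RNA-binding protein. By their label the het cultures carried 1 altered copy, and the allele is not described further in the sources used here. There were 3 libraries each of WT soma, het soma, WT neurites and het neurites. All cultures were treated with papain, collagenase and dispase, were passed over a Percoll cushion, and were grown in serum on poly-lysine and laminin. They were cultures of whole ganglia, so that glia and other cells could be present in both compartments. The labels state independent biological repeats, and p-values measure the spread between these libraries.

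Calmodulin and the neuronal calcium sensors are small proteins that bind calcium through EF-hand loops and then change the activity of other proteins. Calmodulin occurs in all cells, is encoded by several genes with the same protein product, and acts on kinases, phosphatases, channels and cytoskeletal proteins. The neuronal calcium sensors carry a fatty acid on a glycine next to the first methionine, by which several of them move to membranes when calcium rises. Vsnl1 encodes visinin-like protein 1, Hpcal1 and Hpcal4 hippocalcin-like proteins, Ncald neurocalcin delta and Ncs1 neuronal calcium sensor 1, which acts on a phosphatidylinositol 4-kinase. Cabp1 encodes calcium-binding protein 1, a relative of calmodulin that regulates voltage-gated calcium channels and the inositol trisphosphate receptor.

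The first 30 coding bases show a codon that differs between the neuronal calcium sensors and the calmodulin genes. They were read from the GENCODE M21 transcripts (GRCm38), and the capitals mark the second codon.
Vsnl1: atgGGGaaacagaatagcaaactggcccca
Hpcal1: atgGGCaagcagaacagcaagctgcgtcct
Hpcal4: atgGGGaaaaacaacagcaagctggccccc
Ncald: atgGGGaaacagaacagcaagctgcgccct
Ncs1: atgGGGaaatccaacagcaagttgaagcct
Cabp1: atgGGCggcggcgacggggccgcatttaag
Calm2: atgGCTgaccaactgactgaagagcagatt
Calm3: atgGCTgaccagctgactgaggaacagatt
The second codon was one for glycine (GGG or GGC) in Vsnl1, Hpcal1, Hpcal4, Ncald, Ncs1 and Cabp1, and was GCT, which does not encode glycine, in Calm2 and Calm3. Cabp1, described above as a relative of calmodulin, thus held a glycine codon as well, and the codon alone does not place a gene in a family. The translations held 4 matches to the EF-hand loop pattern of PROSITE in the calmodulins, and 3 in each of the other genes.

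Calm2 and Calm3 differ in their bases, and the first EF-hand loop shows how far. It runs from coding base 61 to 96, and the capitals mark the 7 of 36 positions at which both genes differ.
Calm2: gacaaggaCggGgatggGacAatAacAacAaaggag
Calm3: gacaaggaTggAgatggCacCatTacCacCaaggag
Calm2 and Calm3 shared 82.7% of their coding bases, and their longest identical coding run was 17 bases. Among the other genes, Vsnl1 was closest to Hpcal4 (82.1% of coding bases, longest run 24), and Hpcal1 was close to Hpca (86.1%, longest run 38).

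Levels are given in CPM, the usual scaling of counts to the effective library size. Per kilobase of its main transcript, Calm3 had the highest mean level over the 12 libraries, 451 CPM per kb with a range of 324 to 562. Calm2 followed with 438 (358 to 554), and these ranges overlapped almost wholly. Hpcal1 had 95.8 CPM per kb (64.5 to 119) and Ncs1 73.2 (53.0 to 89.0), neighbours whose ranges also overlapped. Cabp1 had 25.3 (15.8 to 33.5) and Vsnl1 10.9 (6.40 to 13.1), with no overlap between them or with Ncs1. Hpcal4 had 0.367 (0.203 to 0.535) and Ncald 0.199 (0.119 to 0.251), overlapping ranges at the low end of what these libraries measure. How reads shared by several transcripts were counted is not given in the sources used here, and per kilobase of bases in no other deposited transcript of the gene Calm2 had 1339 CPM and Calm3 532. On that measure Cabp1 had 56.4, a value within the range of Ncs1. Ncald, with 196 such bases, had 3.46, above Hpcal4 with 0.367. The order within both pairs, Calm2 and Calm3 and Hpcal4 and Ncald, thus depends on the measure.

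**Figure D1:**
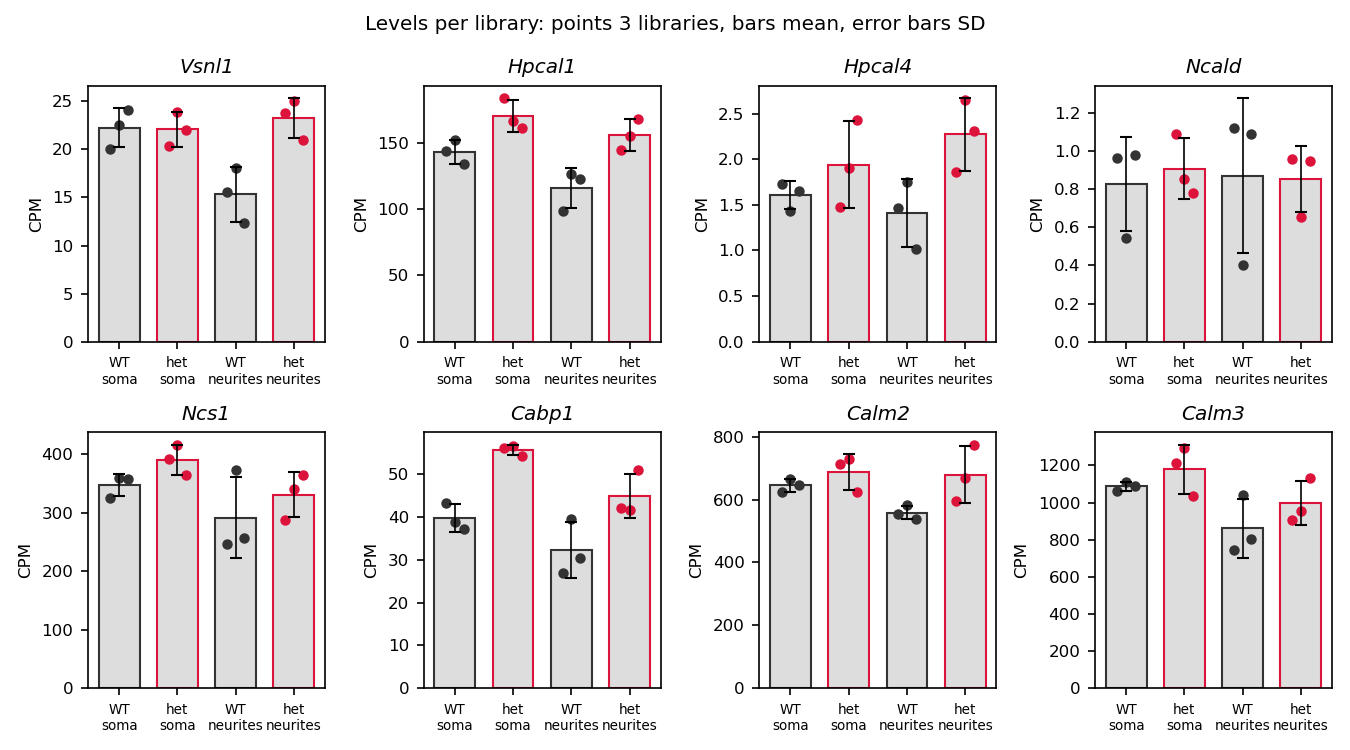
Levels in CPM (vertical axes, linear, starting at 0) of the 8 genes in the 4 groups. Points are single libraries, bars the mean and error bars the SD of 3 libraries. Vsnl1 is low in WT neurites (15.3 CPM) and Cabp1 is higher in het than in WT in both compartments.

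Vsnl1 lies at chr12:11325242-11436613 on the minus strand of GRCm38, and its deposited counts came from 1 protein-coding transcript of 4 exons. In WT soma its levels were 20.1, 22.5 and 24.1 CPM, and in het soma 20.3, 23.9 and 22.01. In WT neurites they were 15.6, 18.0 and 12.3 CPM, and in het neurites 23.7, 25.0 and 20.9. All 3 WT neurite libraries lay below all other libraries, while the soma groups overlapped. The means were 22.2 ± 2.02, 22.1 ± 1.79, 15.3 ± 2.88 and 23.2 ± 2.08 CPM (SD, n = 3 each) in WT soma, het soma, WT neurites and het neurites. The log2 fold change of het over WT was 0.61 ± 0.14 (SE) in neurites and -0.01 ± 0.14 in soma. The difference between these 2 values, which is also the het neurite-to-soma change minus that of WT, was 0.62 ± 0.20. These genotype differences are the reason for which Vsnl1 was chosen and are given without a test. In the authors' deposited table, the log2 fold change of Vsnl1 was 0.64 in neurites and 0.000511 in soma.

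Cabp1 lies at chr5:115168689-115194381 on the minus strand. Its levels were 43.3, 38.7 and 37.2 CPM in WT soma and 56.1, 56.6 and 54.2 in het soma. In WT neurites they were 26.9, 39.6 and 30.5 CPM, and in het neurites 42.2, 41.6 and 50.8. Het libraries lay above WT libraries in each compartment without overlap, and the smallest gap was that between 39.6 and 41.6 CPM in neurites. The means were 39.7 ± 3.17 and 55.6 ± 1.26 CPM in WT and het soma, and 32.3 ± 6.57 and 44.9 ± 5.18 in WT and het neurites (SD, n = 3 each). The log2 fold change of het over WT was 0.48 ± 0.13 (SE) in soma and 0.47 ± 0.13 in neurites, with a difference of -0.01 ± 0.19. Unlike Vsnl1, Cabp1 thus had a genotype difference of about the same size in both compartments, again as a description. In the authors' deposited table the main transcript of Cabp1 had a log2 fold change of 0.50 in soma and 0.49 in neurites.

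Hpcal1, at chr12:17690856-17791933 on the plus strand, had 144, 152 and 134 CPM in WT soma and 183, 166 and 161 in het soma. In neurites it had 98.5, 126 and 122 CPM in WT and 144, 155 and 168 in het. The genotypes did not overlap in either compartment, and the log2 fold change of het over WT was 0.25 ± 0.11 (SE) in soma and 0.43 ± 0.11 in neurites. In the authors' deposited table the log2 fold change of Hpcal1 in neurites was 0.46.

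Ncs1, at chr2:31245823-31295989 on the plus strand, had 326, 359 and 358 CPM in WT soma and 392, 416 and 365 in het soma. In neurites it had 247, 372 and 256 CPM in WT and 289, 341 and 364 in het. The second WT neurite library stood above all het neurite libraries, while the soma groups were separate. The log2 fold change of het over WT was 0.17 ± 0.14 (SE) in soma and 0.18 ± 0.14 in neurites. Without that library the neurite value was 0.40, and without the first WT neurite library it was 0.075.

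Hpcal4, at chr4:123183227-123194701 on the plus strand, and Ncald, at chr15:37366175-37792570 on the minus strand, were near the floor. Hpcal4 had 1.73, 1.43 and 1.65 CPM in WT soma and 1.48, 1.90 and 2.43 in het soma, then 1.47, 1.75 and 1.01 in WT neurites and 1.86, 2.65 and 2.31 in het neurites. Its counts ranged from 21 to 69 per library, and the genotypes were separate in neurites and overlapped in soma. Its log2 fold change of het over WT was 0.72 ± 0.28 (SE) in neurites and 0.26 ± 0.27 in soma. Leaving out 1 library moved the soma value between 0.08 (without the third het soma library) and 0.44 (without the first). Ncald lay between 0.40 and 1.12 CPM, with all 4 groups overlapping and log2 differences between genotypes of 0.15 ± 0.39 in soma and -0.06 ± 0.41 in neurites. The neurite value of Ncald changed sign between -0.38 without the second WT neurite library and 0.16 without the third. Its soma value did so between -0.09 without the second WT soma library and 0.28 without the third. An observed count of 0 allows up to 3 counts, which is 0.0925 to 0.2005 CPM in these libraries and covers counting error only.

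The calmodulins were the most abundant of these genes. Calm2, at chr17:87433412-87446935 on the minus strand, had 623, 666 and 646 CPM in WT soma and 714, 730 and 623 in het soma. In neurites it had 555, 581 and 539 CPM in WT and 595, 668 and 774 in het. Only its neurite groups were separate, and the log2 fold change of het over WT was 0.28 ± 0.11 (SE) there and 0.09 ± 0.11 in soma. Without the third het neurite library the neurite value of Calm2 was 0.18. Its soma value was 0.05 without the second het soma library and 0.17 without the third. Calm3, at chr7:16915379-16924114 on the minus strand, had 1060, 1112 and 1089 CPM in WT soma and 1214, 1292 and 1035 in het soma. In neurites it had 742, 1043 and 804 CPM in WT and 904, 957 and 1134 in het. The genotypes overlapped in both compartments, with log2 differences of 0.12 ± 0.13 in soma and 0.21 ± 0.13 in neurites. In neurites the value of Calm3 was 0.37 without the second WT library and 0.11 without the third het library. In soma it was 0.05 without the second het library and 0.21 without the third.

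Counted over the 8 genes, het was above WT without overlap in 3 in soma (Cabp1, Hpcal1 and Ncs1) and in 5 in neurites (Vsnl1, Cabp1, Hpcal1, Hpcal4 and Calm2). Over all 15990 genes tested, 8.86% were above without overlap in soma and 7.53% in neurites. None of the 8 was below without overlap in either compartment, beside 11.9% of all genes in soma and 10.8% in neurites. The median log2 fold change of the 8 genes was 0.16 in soma and 0.36 in neurites, beside 0.01 and -0.01 over all genes. Since the genes were chosen by these differences, nothing is read from these counts.

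**Figure D2:**
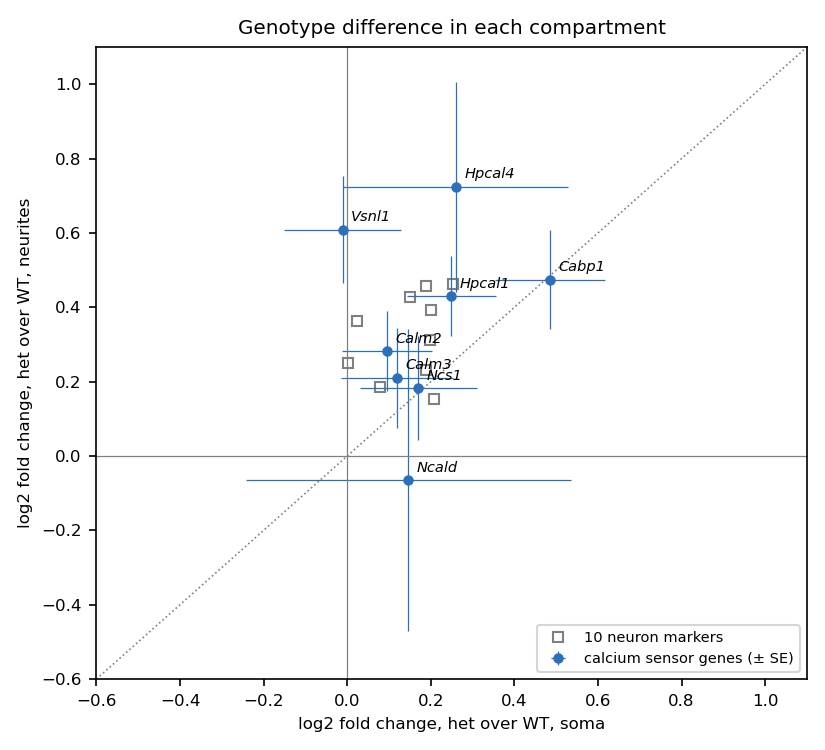
The log2 fold change of het over WT in soma (horizontal axis) and in neurites (vertical axis) for the 8 genes (blue, with SE) and for 10 neuron marker genes (grey squares). The dotted line marks equal values. Vsnl1 lies on zero in soma and at 0.61 in neurites, and Cabp1 lies near the line at 0.48 and 0.47.

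General neuron markers lay in the same direction between genotypes, with 1 past the test. All 10 markers fixed for neurons (such as Tubb3, Snap25 and Nefl) had positive log2 fold changes of het over WT in both compartments, with medians of 0.19 in soma and 0.34 in neurites, and the 1 that passed did so in neurites. Their summed level was 10496 to 12218 CPM in WT soma and 11573 to 14241 in het soma, and 7635 to 10401 in WT neurites and 9078 to 11867 in het neurites. Nefl and Tubb3 made up 42.8% and 39.6% of that sum. The 10 nociceptor markers were present too, with summed levels of 2826 to 4477 CPM. Between genotypes 8 of 10 nociceptor markers were positive in each compartment (medians 0.14 in soma and 0.25 in neurites). Of 9 tested markers of large-diameter neurons, 6 were positive in soma (median 0.11) and 5 in neurites (0.06). All 6 tested macrophage markers were positive in soma (median 0.34) and 5 in neurites (0.40), and no marker of these 3 lists passed. Markers of satellite glia had medians of -0.61 and -0.69, with 4 of 10 called lower in het neurites, and those of Schwann cells -0.51 and -0.69, with 3 of 9 (Ncmap had no row in both tables). Fibroblast markers had medians of -0.56 in soma and -0.61 in neurites, with 1 of 10 called lower in het neurites. Those of endothelium and mural cells had -0.43 and -0.61, with 2 of 8 tested. Over all genes, 2.78% were called lower in het neurites. The summed satellite glia markers were 1029 to 1448 CPM in WT soma, 970 to 1077 in het soma, 1545 to 1728 in WT neurites and 1049 to 1387 in het neurites, and no library lacked them. In whole compartments, fewer cells of a type and less RNA per cell cannot be told apart.

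Set against the summed neuron markers, the values differed between genes in sign and size, and they are given without an error. The log2 difference of het from WT, relative to that of the sum, was 0.32 for Vsnl1 in neurites and -0.20 in soma. For Cabp1 it was 0.30 in soma and 0.19 in neurites, and for Hpcal1 0.06 and 0.14. Calm2 had -0.10 in soma and -0.02 in neurites, Calm3 had -0.08 in both, and Ncs1 had -0.02 and -0.09. Hpcal4 had 0.06 in soma and 0.41 in neurites, and Ncald -0.02 and -0.21. Per 1000 CPM of neuron markers, Vsnl1 had 2.04, 1.73 and 1.60 CPM in WT neurites and 2.61, 2.11 and 2.003 in het neurites, so that these groups overlapped. On the same scale Cabp1 had 3.93, 3.17 and 3.55 in WT soma and 4.41, 3.97 and 4.68 in het soma, which did not overlap. In neurites the values of Cabp1 were 3.52, 3.81 and 3.97 in WT and 4.65, 3.51 and 4.86 in het, which overlapped. The part of the neuron, glia and other markers in the genotype differences was not tested beyond these values.

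The comparison of neurites with soma, averaged over both genotypes, does not use the difference by which Vsnl1 and Cabp1 were picked. Cabp1 mRNA fell in neurites by a log2 fold change of -0.30 ± 0.09 (SE), with an adjusted p of 0.0456 in edgeR's quasi-likelihood test. It was the only one of the 8 genes past the threshold of 0.05, beside 12.2% of all genes, made up of 7.33% higher and 4.87% lower. The call rested on a narrow margin, since it was lost in 10 of 12 fits that each left out 1 library, with adjusted p up to 0.105. Calm3 had -0.29 ± 0.09 (adjusted p = 0.0613), Hpcal1 -0.22 ± 0.08 (0.0724), Ncs1 -0.25 ± 0.10 (0.119) and Vsnl1 -0.23 ± 0.10 (0.139). Calm2 had -0.11 ± 0.08 (adjusted p = 0.356), while Hpcal4 (0.02 ± 0.20) and Ncald (-0.00 ± 0.28) were near zero with wide errors. The median of the 8 genes was -0.23, beside -0.00 over all genes, and 7 of the 8 values were negative. In none of the 8 were all neurite libraries separate from all soma libraries, beside 2.76% of all genes above and 1.46% below without overlap.

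The second WT neurite library held several of these values up. Without it, 5 of the 8 genes were lower in neurites at an adjusted p under 0.05: Cabp1 (-0.39), Calm3 (-0.37), Ncs1 (-0.35), Vsnl1 (-0.30) and Hpcal1 (-0.25). With 1 library left out the groups are unequal, and the mean of both genotypes is no longer free of the genotype difference. Without this library the genotype difference in neurites was also larger, 0.74 for Vsnl1 and 0.64 for Cabp1. The calls of Vsnl1 and Cabp1 in such fits are thus a description. Without the third het neurite library, Cabp1 and Calm3 passed. In each of the other 10 such fits none of the 8 passed.

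Within WT cultures, Vsnl1 had the lowest value of the 8, -0.54 ± 0.14 (SE), and in het cultures it had 0.07 ± 0.14. These values share libraries with the genotype difference by which Vsnl1 was chosen, and they are given without a test, as are those of Cabp1, -0.30 ± 0.13 in WT and -0.31 ± 0.13 in het. None of the other 6 genes passed in either genotype, where 3.1% of all genes passed in WT and 0.638% in het. In WT, all neurite libraries lay below all soma libraries in 4 of the 8 genes (Vsnl1, Hpcal1, Calm2 and Calm3), beside 9.96% of all genes. In het this was so for 2 (Cabp1 and Ncs1), beside 10.6%. None of the 8 was above without overlap, beside 12.4% of all genes in WT and 11.7% in het. These counts include Vsnl1 and Cabp1, which were chosen by a difference that shares these libraries. Nothing is therefore read from the counts. The soma and neurite libraries of WT deviated together by number, and with the replicate number as a block the WT value of Vsnl1 was -0.56 and none of the other 6 genes passed. The block also raised the number of genes called in WT from 495 to 1489.

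**Figure D3:**
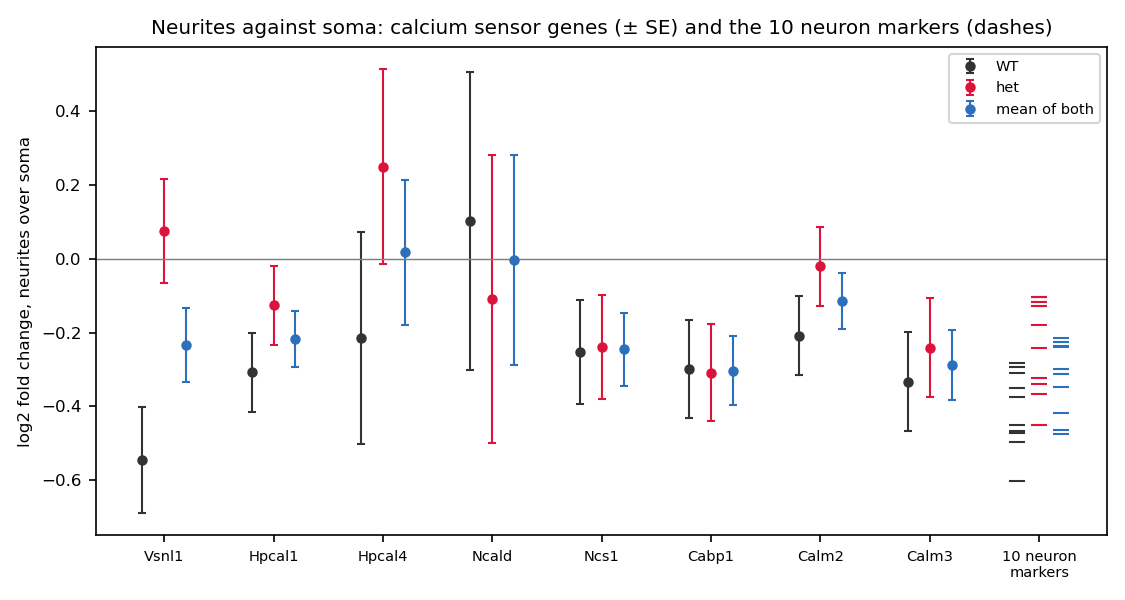
Log2 fold change of neurites over soma (vertical axis) in WT, in het and as the mean of both, for each gene with its SE. Dashes at the right are the 10 neuron markers. Vsnl1 stands at -0.54 in WT and 0.07 in het, and the markers all lie below zero.

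The neuron markers were lower in neurites as well. All 10 had negative values, with a median of -0.30 and a range of -0.47 to -0.21, and 5 of 10 passed the test. The values of Calm3, Hpcal1, Ncs1, Vsnl1 and Cabp1 lay within that range, while those of Calm2, Hpcal4 and Ncald lay above it. This is for the mean of both genotypes. In het alone, Vsnl1 (0.07 ± 0.14, SE) lay above all 10 markers, which ran from -0.45 to -0.10. Markers of satellite glia were higher in neurites, with a median of 0.49 and 4 of 10 past the threshold. Relative to the summed neuron markers, Cabp1 had log2 differences of neurites from soma of 0.09 in WT and -0.02 in het, given without an error. The part of the neuron and glia markers in the compartment differences was not tested beyond these values.

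Most of the genes were read through 1 transcript. In a fit of 29102 single transcripts between compartments (edgeR, mean of both genotypes), in which 7.14% passed, no transcript of the 8 genes did. Cabp1-204, with 1053 coding bases, held 93.3% to 96.2% of the Cabp1 counts in the 12 libraries, with no difference beyond the spread between soma (95.0% ± 1.02) and neurites (95.2% ± 0.85, SD, n = 6 each, exact permutation test, p = 0.688). Calm2-202, annotated as retaining an intron, held 17.3% ± 0.11 of the Calm2 counts in soma and 18.8% ± 1.03 in neurites (SD, n = 6 each). In soma all 6 libraries lay between 17.2% and 17.5%. In neurites the values were 19.4%, 19.5% and 19.2% in WT and 18.9%, 19.0% and 16.7% in het, so that 5 of 6 lay above all soma libraries and the third het library below them. The exact permutation test, 2-sided, gave p = 0.0152, and 0.0758 after adjustment over the 5 transcripts tested. Of these the 2 above are reported, and they were chosen after their values were seen. For both transcripts the test moved all 12 libraries freely between compartments. It used neither genotype nor the library numbers, so it treated libraries that may share a culture as independent. Only 80 bases of Calm2-202 belong to no other deposited transcript.

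**Figure D4:**
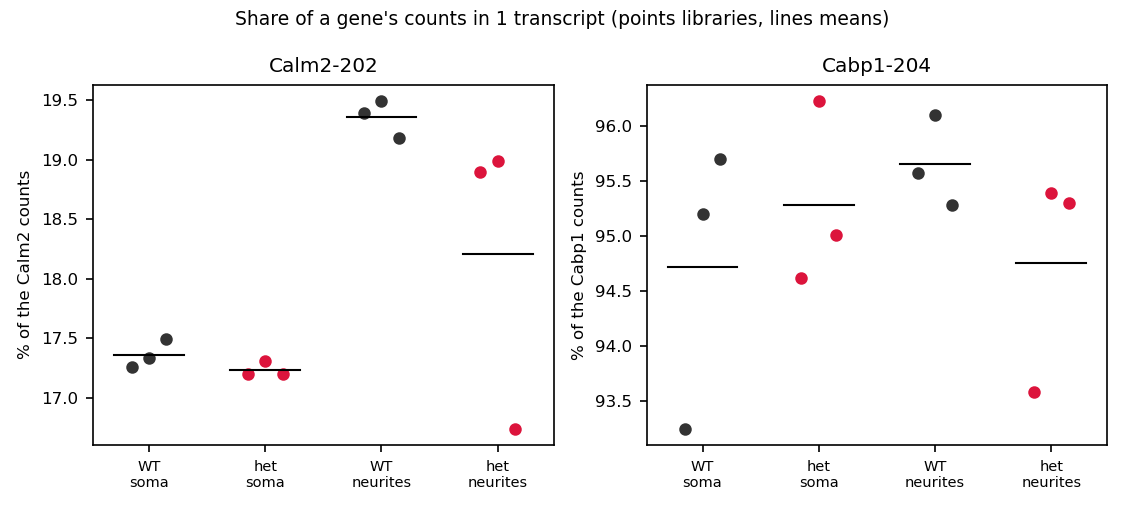
Share of the counts of Calm2 in Calm2-202 (left) and of Cabp1 in Cabp1-204 (right), in percent, per library, with lines at the group means. The vertical axes do not start at 0. For Calm2-202, soma libraries lie between 17.2% and 17.5% and 5 of 6 neurite libraries between 18.9% and 19.5%.

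Across the 12 libraries, the levels of several genes ran together. Pearson's r of log2 CPM was 0.96 for Calm3 and Ncs1 and 0.92 for Cabp1 and Hpcal1. These values are a description over libraries that may share cultures and that differ in depth. For Vsnl1, r ran from 0.61 (Cabp1) to 0.71 (Hpcal4), and was -0.25 for Ncald. Of 7178 genes with at least 10 CPM on average, those most like Vsnl1 were Tox3 (r = 0.91), Nkiras1 (0.88), Gmcl1 (0.87), Rab3c (0.87) and Ttc19 (0.87). Those most like Cabp1 were Trnp1 (0.94), Vat1l (0.94), Cygb (0.94), Cib2 (0.94) and Syn2 (0.94), and Hpcal1 had rank 10 (0.92). Cib2 encodes another EF-hand protein, and Syn2 encodes synapsin 2 of synaptic vesicles.

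The bases before the starts of Cabp1, Hpcal1 and Vsnl1 are shown because Cabp1 and Hpcal1 ran together (r = 0.92) and Vsnl1 was less like either (0.61 and 0.63). They are from RefSeq (GRCm38.p6), end before the annotated start, and are written in the direction of the gene. Cabp1 is chr5:115194382-115194631 on the minus strand, Hpcal1 chr12:17690559-17690808 on the plus strand and Vsnl1 chr12:11436614-11436828 on the minus strand. Capitals mark the GC box, searched as GGGCGG on both strands.
Cabp1: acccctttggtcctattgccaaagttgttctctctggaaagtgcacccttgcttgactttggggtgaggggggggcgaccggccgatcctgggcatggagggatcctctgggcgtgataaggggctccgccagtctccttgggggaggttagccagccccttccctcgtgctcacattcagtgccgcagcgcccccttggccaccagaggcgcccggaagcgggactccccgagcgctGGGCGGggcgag
Hpcal1: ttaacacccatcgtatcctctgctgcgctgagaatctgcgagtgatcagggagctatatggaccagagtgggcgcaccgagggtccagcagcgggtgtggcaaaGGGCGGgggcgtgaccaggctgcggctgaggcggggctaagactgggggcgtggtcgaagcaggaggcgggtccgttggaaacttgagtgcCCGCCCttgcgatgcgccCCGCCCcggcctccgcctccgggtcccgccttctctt
Vsnl1: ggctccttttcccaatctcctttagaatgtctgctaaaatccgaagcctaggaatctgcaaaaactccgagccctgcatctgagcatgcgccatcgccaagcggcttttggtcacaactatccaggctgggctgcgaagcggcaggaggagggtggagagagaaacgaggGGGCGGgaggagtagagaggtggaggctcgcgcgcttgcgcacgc
All 3 windows shown held a GC box, which 32.7% of 32851 windows of 250 bases before RefSeq starts held. The window of Vsnl1 is 215 bases long, since its deposited transcript starts upstream of the RefSeq start, and those of the others 250. RefSeq lists a second start each for Vsnl1 and Cabp1, whose windows are not shown and held no GC box. None of the windows of the 3 genes held TGACGTCA (1.5% of windows), TGACG (17.8%), TATAAA (12.4%) or CACGTG (6.0%), each searched on both strands, and TGACG is part of TGACGTCA. The share of G and C was 66.0% in Cabp1, 66.8% in Hpcal1 and 58.6% in Vsnl1, beside a median of 52.4% over all windows.

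Other genes of calcium signalling were taken from lists, whose counts stand beside 7.33% of all genes higher and 4.87% lower in neurites. Over all 6 lists, 8 genes were higher and 9 lower. Leaving out 1 library gave 5 to 9 higher and 5 to 23 lower, with 23 lower without the second WT neurite library. Of 8 tested of 16 other calcium sensors, 0 were higher and 2 lower in neurites (mean of both genotypes, edgeR), with a median log2 fold change of -0.38. These were Kcnip3 (-0.74 ± 0.08, adjusted p = 0.000219), which encodes a potassium channel-interacting calcium sensor, and Cabp7 (-0.65 ± 0.16, adjusted p = 0.0206), a relative of Cabp1. Caln1 had -0.71 ± 0.26 (adjusted p = 0.0876). Kcnip3 had 23.7 to 30.4 CPM in soma and 12.9 to 19.9 in neurites, without overlap. Of 16 tested of 18 EF-hand calcium buffers, 2 were higher, S100a11 (0.58 ± 0.12, adjusted p = 0.00687) and S100a4 (0.58 ± 0.14, 0.0141), and 1 lower, Necab3 (-0.52 ± 0.14, 0.0296), with a median of 0.04.

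Of 22 tested of 24 calmodulin kinases and phosphatases, Camk2d was higher (0.29 ± 0.07, adjusted p = 0.0219 in edgeR) and Camk4, a nuclear kinase, was lower (-0.37 ± 0.08, 0.00775). Ppp3ca, the catalytic subunit of calcineurin, had -0.23 ± 0.07 (0.0604), and the list's median was -0.16. Of 22 tested of 23 other calmodulin targets, 3 were higher and 1, Nos1, was lower (-0.43 ± 0.12, 0.0359), with a median of -0.17. The 3 were Marcks (0.51 ± 0.09, 0.00229) and Marcksl1 (0.29 ± 0.07, 0.0112), which bind calmodulin and actin at the membrane, and Iqgap1 (0.51 ± 0.15, 0.0372). Of 15 tested of 18 partners of the neuronal calcium sensors, 0 were higher and 1 was lower, Chrnb2 (-0.45 ± 0.10, 0.0107), a nicotinic receptor subunit, with a median of -0.07. Chrna4 had -0.53 ± 0.18 (0.0678) and Npr2 -0.33 ± 0.12 (0.0884).

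Of 20 tested of 25 genes of calcium release, pumps and exchangers, 2 were higher and 3 lower in neurites, with a median of -0.09. Micu2, a regulator of the mitochondrial calcium uniporter, rose by 0.51 ± 0.07 (adjusted p = 0.000516 in edgeR), and Itpr3, an inositol trisphosphate receptor, by 0.52 ± 0.14 (0.0286). The plasma membrane calcium pumps Atp2b2 (-0.69 ± 0.15, 0.00775) and Atp2b3 (-0.77 ± 0.19, 0.0151) fell, as did Orai2 (-0.28 ± 0.08, 0.0311).

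Between genotypes, 3 genes of all lists passed in neurites, where 3.27% of all genes passed, 0.494% higher and 2.78% lower. Necab1, a neuronal EF-hand protein, was higher in het (0.43 ± 0.09, adjusted p = 0.0285 in edgeR), with 129, 147 and 119 CPM in WT and 162, 181 and 187 in het. Its value lay within the range of the 10 neuron markers in the same comparison, 0.15 to 0.46. Itpr3 (-0.81 ± 0.20, 0.0443) and Mylk, a myosin light chain kinase of contractile cells (-0.64 ± 0.17, 0.0495), were lower in het neurites. Leaving out any 1 soma library kept Necab1 and lost Itpr3 and Mylk. The number of all genes called was 523, and it was 0 without the third WT, the second het or the third het neurite library, and 0 in the 6 neurite libraries alone. Without the first WT neurite library 50 genes were called and none of the lists. Without the second WT neurite library 1767 genes were called, among them 9 list genes higher and 5 lower. In soma no gene passed (0% of 15990, although 1464 had an unadjusted p under 0.05 and DESeq2 called 315, 2 of them list genes). A fit blocked on the library number called 520 soma genes, 26 higher and 494 lower, although pairs of WT with het by number are uncertain. Of the list genes, 1 was among them, S100a4, lower in het.

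As a check of depth and labels, totals per library were 14965973 to 32434916 counts, and the shallowest were the first and second WT neurite libraries. Ncl, the gene of nucleolin, had 218 to 290 CPM in soma and 322 to 463 in neurites, and its summed counts cannot show the state of the domain named in the labels. Ncl had a log2 fold change of het over WT of 0.20 ± 0.13 (SE) in soma and -0.07 ± 0.13 in neurites. The deviations of the third het soma and neurite libraries ran in opposite directions (r = -0.24 across 7772 genes), and without both of them Cabp1 had -0.36 in neurites against soma (adjusted p = 0.0555 in edgeR).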

How the data were processed

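Ribosome-depleted, stranded total RNA libraries were made from both compartments, per the labels' protocols. The authors deposited raw counts per Ensembl transcript in 1 table per compartment. The tables also carry the authors' own log2 fold change between genotypes for each transcript. Its p-value and false discovery rate stand beside it, per the file headers. CASAVA 1.8.2 and edgeR were used with mm10 (GRCm38), per the submitters' processing notes, while the sources used here do not name the aligner or the counter. Each table holds only transcripts with at least 5 counts in at least 3 libraries. Counts without a gene name made up 0.574% to 0.694% per library and were left out. The remaining 24 per-sample columns were not used.

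Counts were summed per gene name over transcripts in both tables. After filterByExpr and TMM scaling they entered a fit with edgeR 4.0.16 (R 4.3.3), as a robust quasi-likelihood model with 1 mean for each of 4 groups, which kept 15990 genes. Benjamini-Hochberg adjustment ran over all genes tested. The standard error (SE) is the log2 fold change divided by the square root of F. All tests were 2-sided. DESeq2 1.42.0, other filters and scalings, a replicate block and leaving out each library were alternatives. Same-numbered WT soma and neurite libraries deviated together (r = 0.58, 0.59 and 0.40), which pairs them by number. In het, number 2 did (0.52), number 1 less so (0.21) and number 3 did not (-0.24). Differently numbered het libraries had values from -0.53 to 0.26, so that 0.21 does not stand out and pairs in het are uncertain. The replicate block between compartments still paired soma with neurites by number in each genotype, het included. Between genotypes the block was instead the number alone, shared by WT and het. Between genotypes, the deviations of same-numbered soma libraries had r = 0.42, 0.56 and 0.21, and those of neurites 0.40, 0.49 and -0.12. Differently numbered libraries were not compared across genotypes, so that pairs of WT with het by number are uncertain.

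The genes and lists were chosen with earlier results of these data known. Named are the 9 genes and Ncl, and 1 gene that the rule below would name is not reported here. From each list up to 3 genes with the smallest p between compartments are named, and any past the threshold for genotype. Iqgap1, Orai2, S100a4 between genotypes, the marker genes and the transcripts fall outside this rule and were named after their values were seen. The 5 genes most correlated with Vsnl1 and with Cabp1 are named too.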

Additional observations from a re-analysis of the deposited data

How the results depend on the processing

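Of 1 gene called between compartments among the 8 (Cabp1), 0 remained with the size factors of DESeq2 in edgeR (adjusted p = 0.0527). DESeq2 called 2 (Cabp1 and Calm3), and edgeR with the replicate block called 3 (Cabp1, Calm3 and Ncs1). That block paired het libraries by number too, although number 3 did not deviate together. Leaving out 1 library gave 0 to 5, and the 5 include Vsnl1 and Cabp1 under the limit given above.

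Over all genes, the replicate block gave 3066 calls in place of 1950 for the mean of both genotypes, 1489 in place of 495 in WT, 671 in place of 102 in het, 520 in place of 0 between genotypes in soma, 1696 in place of 523 in neurites and 3379 in place of 2077 among transcripts. DESeq2 gave 1106 in WT, 488 in het, 315 in soma and 1199 in neurites. The 6 libraries of a genotype or compartment alone gave 40 in WT, 388 in soma and 0 in neurites. Without the third het pair, an alternative added after seeing the data, 1148 genes were called for the mean and 0 in het. Leaving out 1 library gave 1093 to 2746 for the mean (2746 without the second WT neurite library), 93 to 1081 in WT, 0 to 191 in het, 0 to 64 in soma, 0 to 1767 in neurites and 1064 to 2811 among transcripts. The interaction had 0 genes in edgeR, with either scaling, without a filter, over all transcripts, with the block, in DESeq2 and in the 12 fits that left out 1 library, and was not fitted elsewhere. It had 202 with an unadjusted p under 0.05 in edgeR and 190 in DESeq2. The cause of these shifts was not tested. The genotype differences of the 8 genes are descriptions. In neurites 1 of 144 moved by at least the gene's SD of log2 CPM within groups, and in soma 0 of 144. That SD is not the SE printed beside the fold changes. Without the second WT neurite library, for one, the neurite value of Cabp1 was 0.64, beside 0.47 ± 0.13 (SE) in the main fit. Without the first WT neurite library it was 0.36. The neurite value of Vsnl1 ran from 0.47 without the third WT neurite library to 0.74 without the second, beside 0.61 ± 0.14. Counts of 21 to 69 limit Hpcal4, and fewer limit Ncald.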
